A study of Mus musculus with 4 samples.

Results

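The genes described here are the steroidogenesis and Leydig hormone genes of the mouse testis: Star, Cyp11a1, Cyp17a1, Hsd3b1, Hsd3b6, Hsd17b3, Srd5a1, Lhcgr, Insl3 and Prlr. They were taken by symbol, and all 10 were found among the 55357 genes of the count tables. The measurement was single-nucleus RNA-seq of whole testes, with 10x Genomics 3′ chemistry, in 2 WT and 2 Dhx37-/- libraries from male mice of 8 weeks. The Dhx37-/- mice carried floxed alleles whose exon 2 is cut out by Amh-Cre, a Cre driven by a Sertoli cell promoter, so the deletion was aimed at Sertoli cells and not at Leydig cells. The labels call the libraries biological replicates. Whether a library held 1 animal or several was not given in the sources used here. With 2 libraries per genotype the tests measure only the spread between these libraries.

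Leydig cells lie between the seminiferous tubules and make testosterone from cholesterol. STAR carries cholesterol to the inner mitochondrial membrane, CYP11A1 cleaves its side chain, the 3β-hydroxysteroid dehydrogenases (HSD3B1, HSD3B6), CYP17A1 and HSD17B3 carry pregnenolone on to testosterone, and SRD5A1 reduces testosterone to dihydrotestosterone. LHCGR receives luteinizing hormone, PRLR receives prolactin, and INSL3 is a peptide hormone that the same cells secrete. In the study, Leydig cell function was examined beside the Sertoli cell deletion. The question put to the counts here was in which nuclei these transcripts lie, how much of their signal outside Leydig cells matches RNA that floats free in the suspension, and whether either differed between genotypes.

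The 4 libraries held 51797891 to 75611263 UMIs (unique molecular identifiers, the counted molecules). Between 8295 and 10040 nuclei per library were kept, at medians of 3306 to 4154.5 UMIs, and any 2 libraries shared 19 to 29 barcodes of kept nuclei. Nuclei were placed in classes by marker genes that include none of the 10. No class was given to 47.1% and 41.3% of WT nuclei and to 19.1% and 22.5% of Dhx37-/- nuclei. Levels by class leave these nuclei out, and sums over all nuclei include them. The class called Leydig-like had 215 nuclei in replicate 1 and 79 in replicate 2 of WT, then 278 and 303 in the same order of Dhx37-/-. In it, 9 of the 12 Leydig markers reached 20 CPM (UMIs per 1000000 UMIs of the same nuclei) and at least 1.5 times their level in other nuclei, led by Akr1cl, while Hsd11b1 and Csn3 had at most 3 UMIs in any library. Free RNA was read from the barcodes ranked 45000 to 90000 by UMIs, which held 6918232 to 13045926 UMIs per library. By the level of the spermatid genes Prm1, Prm2, Tnp1 and Tnp2, free RNA made up 17.5% of the UMIs of Leydig-like nuclei in WT replicate 1 and 9.15% to 9.52% in the other 3 libraries. Dhx37 gives no check of the deletion, since 3′ reads can lie outside the removed exon, and Sertoli-like nuclei held 3, 3, 12 and 13 of its UMIs.

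The transcripts lay mostly in Leydig-like nuclei. Leydig-like nuclei made up 2.17% and 0.952% of all WT nuclei and 3.16% and 3.02% of all Dhx37-/- nuclei, and they held 69.8% to 74.8% of the summed UMIs of the 10 genes. Per Leydig-like nucleus they summed to 40.2, 59.3, 69.0 and 67.3 UMIs (WT replicates first, then Dhx37-/- replicates, as in all lists of 4 values here). The sums were 8036 and 11356 CPM for WT, and 11704 and 10090.0 CPM for Dhx37-/-. WT replicate 1 was the lowest of the 4 by both measures. In CPM the WT and Dhx37-/- levels overlapped. The UMIs per nucleus did not, where the median depth of Leydig-like nuclei was 4683 and 4898 UMIs in WT and 5765 and 6620 UMIs in Dhx37-/-. Hsd17b3 had 83.9% to 87.4% of its UMIs there and Cyp11a1 74.5% to 86.1%, while Srd5a1 had 1.57% to 16.8%.

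The genes that start the pathway varied between libraries of the same genotype. Star, the cholesterol carrier, stood at 289 and 552 CPM in WT Leydig-like nuclei and at 721 and 476 CPM in their Dhx37-/- counterparts. Cyp11a1, the side-chain cleavage enzyme, stood at 1033 and 3864 CPM in WT and at 2549.6 and 1079 CPM in Dhx37-/-. The WT values of Cyp11a1 thus enclosed both Dhx37-/- values. Cyp17a1, the 17α-hydroxylase, was at 831 and 1747 CPM in WT and at 1841 and 1251 CPM in Dhx37-/-.

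The dehydrogenases varied less, apart from Hsd3b6. Hsd3b1 was at 783 and 569 CPM in WT and at 809 and 824 CPM in Dhx37-/-. Hsd3b6 was at 425 and 504 CPM in WT and at 701.5 and 1243 CPM in Dhx37-/-. Neither Hsd3b1 nor Hsd3b6 overlapped between genotypes. After TMM scaling, 19.2% of all genes tested were likewise higher in both Dhx37-/- libraries. Hsd3b6 shares sequence with other Hsd3b genes: in GENCODE vM21 transcripts, 35.0% of the 50-base words in the last 500 bases of the longest Hsd3b6 transcript also occur in another Hsd3b gene, against 0% for Hsd3b1, so the count of Hsd3b6 is uncertain. Hsd17b3, which makes testosterone from androstenedione, was at 1041 and 928 CPM in WT and at 984 and 739 CPM in Dhx37-/-. Srd5a1, the 5α-reductase, had 39, 3, 6 and 29 UMIs in the Leydig-like nuclei of the 4 libraries, which is 36.3, 7.27, 3.66 and 14.3 CPM.

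The receptors were read in every library. Lhcgr was at 431 and 521 CPM in the Leydig-like nuclei of WT and at 461 and 344 CPM in those of Dhx37-/-. Prlr was at 2978 and 1560.0 CPM in WT and at 2037 and 3008 CPM in Dhx37-/-, so that the higher WT library lay next to the higher Dhx37-/- library.

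Insl3 set WT replicate 1 apart from the rest. There Leydig-like nuclei held 189 CPM, while WT replicate 2 had 1105 CPM, and the Dhx37-/- pair had 1597 and 1110.3 CPM. In free RNA the same order held, with 11.3, 119, 359 and 242 CPM. The WT libraries differed 5.85-fold from each other in nuclei, which is more than WT replicate 2 differed from either Dhx37-/- library. Of the 8 genes whose promoters were searched, Insl3 is also the 1 whose proximal promoter holds AAGGTC. These bases are part of the extended half-site that NR5A1 (steroidogenic factor 1) is known to bind, and the full site was not searched for. The 26-base windows around its 2 matches are shown because NR5A1 is the factor shared by steroidogenic cells. They come from RefSeq (GRCm38.p6, plus strand, both upstream of the start of Insl3), are written 5′ to 3′, and have the match in capitals, as AAGGTC in the first and as its reverse complement GACCTT in the second.
Insl3, chr8:71689106-71689131: agaggacttcAAGGTCccaagctgga
Insl3, chr8:71689152-71689177: ctcgagcctcGACCTTttgggtgctg
The matches begin 136 and 90 bases before the start. RefSeq promoters of 300 bases (250 before the start and 50 after it) were at hand for 8 of the 10 genes, with 11 starts, and the motif was searched on both strands. It was in 1 of these 11 promoters and in 12.3% of all 32851 promoters of the same length, so a match is a description of the sequence only. Star and Cyp17a1 were not searched.

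Leydig-like nuclei were then compared with the 7 other classes that had at least 20 nuclei in every library (Sertoli-like, macrophage-like, fibroblast-like and 4 germ cell classes), by edgeR's quasi-likelihood test on library sums with library in the model. All 10 genes passed an adjusted p of 0.05 as higher in Leydig-like nuclei than in each of the 7 classes, where 4.21% of the 18782 genes tested did so. The classes were drawn with other Leydig genes, so genes that go with those markers were favoured. The smallest of the 7 log2 differences was 6.59 ± 0.33 (SE) for Hsd17b3, 6.02 ± 0.41 for Cyp11a1, 5.70 ± 0.36 for Hsd3b6, 5.41 ± 0.27 for Hsd3b1, 4.88 ± 0.29 for Lhcgr, 4.81 ± 0.35 for Cyp17a1, 4.10 ± 0.29 for Insl3 and 3.72 ± 0.26 for Star. These are fitted differences over the 4 libraries, and single libraries lay below them: Star in Dhx37-/- replicate 2 was at 476 CPM in Leydig-like and 84.0 CPM in fibroblast-like nuclei.

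Prlr and Srd5a1 stood closer to another class. Prlr differed least from fibroblast-like nuclei, by a log2 of 2.11 ± 0.33 (adjusted p = 1.67e-06, edgeR). Srd5a1 differed least from Sertoli-like nuclei, by 1.27 ± 0.46 (adjusted p = 0.0245, edgeR). Without WT replicate 1, the library with the most Srd5a1, that gene passed against 4 of the 7 classes, and without Dhx37-/- replicate 2 against 6, while the other 9 genes passed against all 7 in both cases. In 2 of the 4 libraries Leydig-like nuclei were not the highest class for Srd5a1. In WT replicate 2 they were at 7.27 CPM, beside 11.4 CPM in spermatocyte-like and 16.2 CPM (2 UMIs) in Sertoli-like nuclei. In Dhx37-/- replicate 1 they were at 3.66 CPM, beside 6.95 and 6.18 CPM in the same classes.

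**Figure D1:**
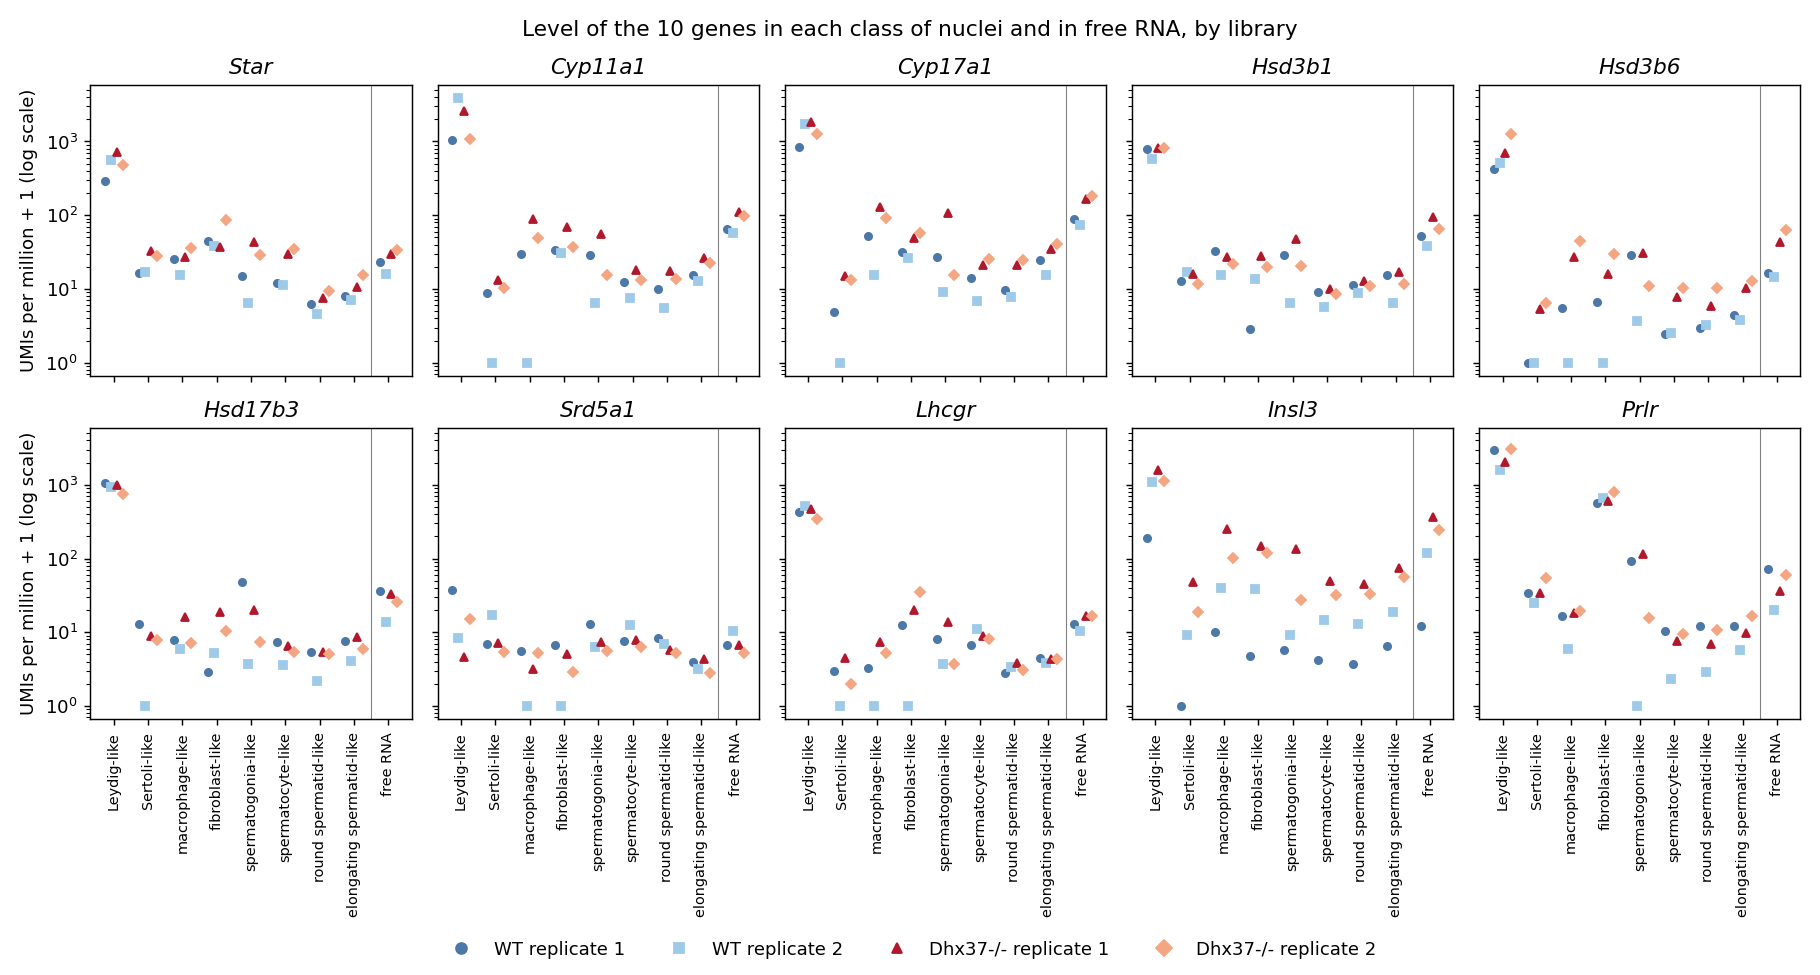
Level of each gene (CPM plus 1, log scale) in 8 classes of nuclei and, right of the line, in free RNA, with 1 point per library. Points at 1 are sums without a UMI. Within every library the Leydig-like point is the highest for 9 genes, Srd5a1 being the exception, and Prlr has a second high class in fibroblast-like nuclei, at 568 to 792 CPM.

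Counted nucleus by nucleus, the genes were found together in nearly all Leydig-like nuclei. To compare classes of unequal depth, each nucleus was thinned to 2000 UMIs and shallower nuclei were left out. The median Leydig-like nucleus then held UMIs of 5, 6, 7 and 6 of the 10 genes in the 4 libraries, and 97.5% to 100% of these nuclei held at least 3. Of spermatocyte-like nuclei, a germ cell class, 75.5% to 87.7% held none of the 10 and at most 0.476% held 3 or more. At least 3 were held by 0.735%, 0%, 11.3% and 10.3% of fibroblast-like nuclei and by 1.85%, 0%, 7.34% and 3.51% of macrophage-like nuclei in the 4 libraries, and these shares were not tested between genotypes. Among fibroblast-like nuclei 22.2% to 39.7% per library held none. Prlr had a UMI in 89.9% to 98.5% of thinned Leydig-like nuclei and in 0.323% to 2.04% of thinned spermatocyte-like nuclei. Insl3 had one in 30.1% of thinned Leydig-like nuclei in WT replicate 1 and in 75.7% to 87.1% in the other libraries (unthinned, 54.0% and 92.4% to 96.0%, at median depths of 4683 to 6620 UMIs).

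Free RNA carried the same 10 transcripts in other proportions. Their summed level in free RNA was 375 and 364 CPM in WT and 886 and 783 CPM in Dhx37-/-. As a share of the summed UMIs of the 10 genes, Prlr made up 37.1%, 13.7%, 17.4% and 29.8% in the Leydig-like nuclei of WT replicates 1 and 2 and Dhx37-/- replicates 1 and 2, against 18.7%, 5.28%, 4.04% and 7.56% in their free RNA. Prlr was the larger in nuclei in 4 of 4 libraries, by 15.6 ± 5.99 percentage points (SD, n = 4). Insl3 went the other way, with 2.35%, 9.73%, 13.6% and 11.0% in nuclei against 3.01%, 32.5%, 40.5% and 30.9% in free RNA, a mean difference of -17.6 ± 11.6 points.

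Over the 10 genes, 8 had the same direction in all 4 libraries. Prlr, Hsd17b3 (4.29 ± 0.588 points), Lhcgr (1.95 ± 0.371) and Hsd3b6 (1.86 ± 1.65) took a larger share in nuclei. Cyp17a1 (-7.93 ± 4.76), Hsd3b1 (-3.17 ± 2.15), Srd5a1 (-1.15 ± 0.954) and Insl3 took a larger share in free RNA. In an exact two-sided sign-flip test over the 4 libraries each of these 8 had p = 0.125, the smallest that 4 libraries allow, and 0.156 adjusted over the 10 genes, so none could pass. Star was larger in nuclei in 3 libraries and Cyp11a1 in 2. Read from the barcodes ranked 90000 to 180000 instead, free RNA kept 5 of the 8 directions in every library, and Cyp17a1 (-0.593 ± 8.19 points), Hsd3b1 (-0.428 ± 2.99) and Hsd3b6 (1.32 ± 3.39) lost theirs. Those barcodes held only 322355 to 410055 UMIs per library, so their shares rest on far fewer UMIs. The longest gene of the set, Prlr, spans 171953 bases and the shortest, Insl3, 1326 bases (RefSeq, GRCm38.p6). Whether reads in introns were counted was not given in the sources used here, and the part of gene length in these shares was not tested.

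**Figure D2:**
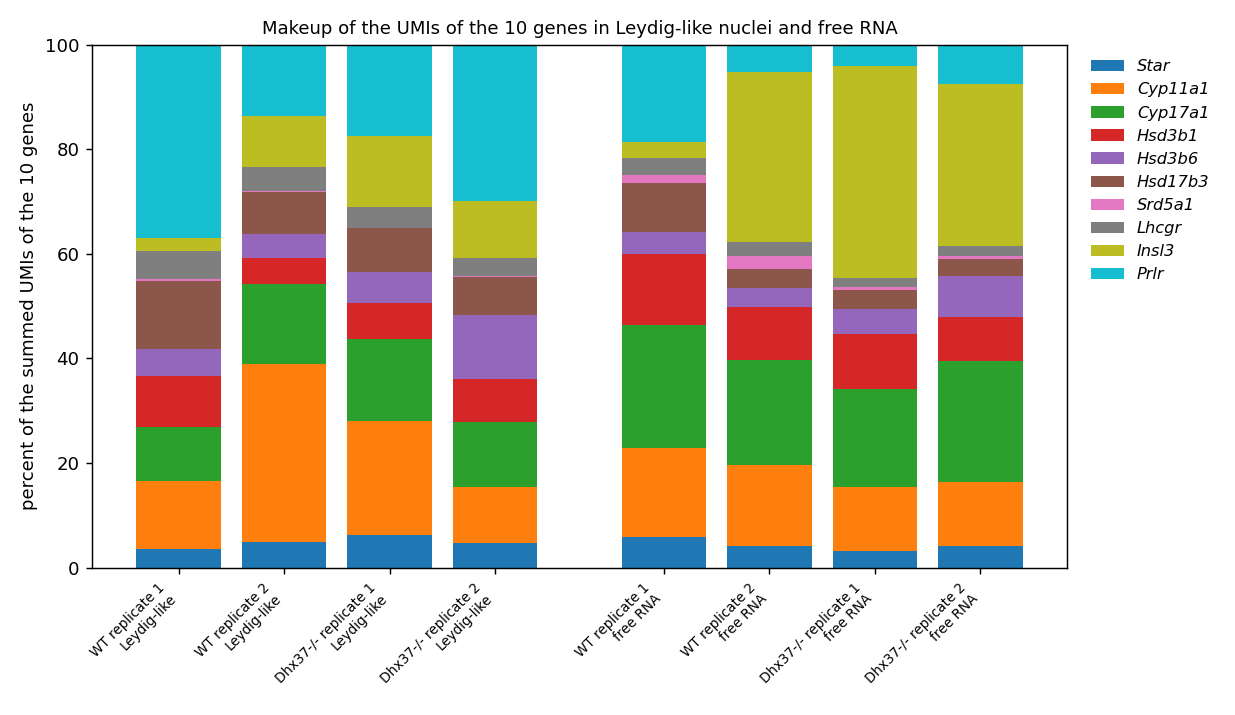
Share of each gene in the summed UMIs of the 10 genes (percent), stacked for the Leydig-like nuclei of the 4 libraries and for their free RNA. The Prlr part is larger in nuclei in every library, and the Insl3 part is larger in free RNA, from 3.01% in WT replicate 1 to 40.5% in Dhx37-/- replicate 1.

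Among the germ cell classes other than spermatogonia-like nuclei, elongating spermatid-like nuclei were closest to free RNA in the makeup of the 10 genes in all 4 libraries. The markers of this class include Prm1, Prm2, Tnp1 and Tnp2, the genes by which free RNA was measured in somatic classes. Its gate can therefore favour nuclei with more free RNA, and the part of this in the closeness was not tested. In elongating spermatid-like nuclei the level of a gene divided by its level in the free RNA of the same library had a median over the 10 genes of 0.273, 0.223, 0.226 and 0.222 in the 4 libraries. Cyp11a1 had a ratio of 0.214 to 0.234 there and Cyp17a1 of 0.199 to 0.269, so both moved with their level in free RNA from library to library. The ratio varied most for Insl3, from 0.153 to 0.492, and for Srd5a1, from 0.232 to 0.600. The makeup of the 10 genes in elongating spermatid-like nuclei was 4.98 to 10.6 percentage points from that of free RNA (the summed absolute differences divided by 2) and 29.5 to 35.2 points from that of Leydig-like nuclei. The distance to free RNA was 7.63 to 22.2 points in round spermatid-like nuclei and 21.3 to 37.9 points in spermatocyte-like nuclei, where that to Leydig-like nuclei was 29.7 to 41.5 and 33.1 to 49.4 points.

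Star stood above the median ratio in spermatocyte-like nuclei, the meiotic cells. Its UMIs there numbered 55 and 40 in WT and 158 and 268 in Dhx37-/-, at 11.2, 10.4, 28.9 and 34.1 CPM. Divided by free RNA this was 0.510, 0.682, 1.02 and 1.04, where the median of the 10 genes was 0.121 to 0.180. In round spermatid-like nuclei of the same libraries the ratio of Star was 0.228 to 0.259 and the median 0.136 to 0.157. In elongating spermatid-like nuclei the ratio of Star was 0.319 to 0.445 and the median 0.222 to 0.273, so Star was above the median in these classes too.

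Lhcgr and Srd5a1 stood above it too. Lhcgr had 28 and 39 UMIs in the spermatocyte-like nuclei of WT and 43 and 56 in those of Dhx37-/-, a ratio of 0.479, 1.07, 0.506 and 0.453, against 0.131 to 0.259 in round spermatid-like nuclei. Srd5a1 had 33 to 44 UMIs per library and a ratio of 1.15 to 1.27 in spermatocyte-like nuclei and 0.632 to 1.28 in round spermatid-like nuclei. Its levels were 5.35 to 11.4 CPM in spermatocyte-like nuclei and 4.22 to 9.40 CPM in free RNA. The median ratio of the set in spermatocyte-like nuclei was 0.121 to 0.180, so a level near that of free RNA was high for this class. The other 7 genes stayed between 0.0673 and 0.288 in spermatocyte-like nuclei.

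Spermatogonia-like nuclei, the smallest germ class, varied between libraries. Their median ratio over the 10 genes was 0.621, 0.172, 0.672 and 0.211. Prlr had 39, 0, 53 and 16 UMIs there, a ratio of 0 to 3.16, Hsd3b6 had 1 to 14 UMIs and a ratio of 0.161 to 1.85, and Hsd17b3 had 1 to 20 UMIs and a ratio of 0.209 to 1.34. The 12 spermatogonia markers summed to 915 CPM in Leydig-like nuclei, where 2 of them were raised, against 171 CPM in other nuclei. In spermatogonia-like nuclei they summed to 1241 CPM. Whether Leydig nuclei below the somatic limits lie in this class was not tested. Few nuclei carried the sums of the 10 genes: Prlr had a UMI in 6.32%, 0%, 6.52% and 5.07% of the spermatogonia-like nuclei. After thinning to 2000 UMIs, 76.1% to 92.8% held none of the 10 genes and 3.37%, 0%, 4.55% and 0.476% held at least 3, with up to 6 and 8 genes in single nuclei of WT replicate 1 and Dhx37-/- replicate 1. The makeup of the summed UMIs was nearer to Leydig-like nuclei than to free RNA in WT replicate 1 (which was 28.5 points from free RNA) and Dhx37-/- replicate 1 (19.4 against 21.8 points), and nearer to free RNA in Dhx37-/- replicate 2 (27.6 against 31.2 points).

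**Figure D3:**
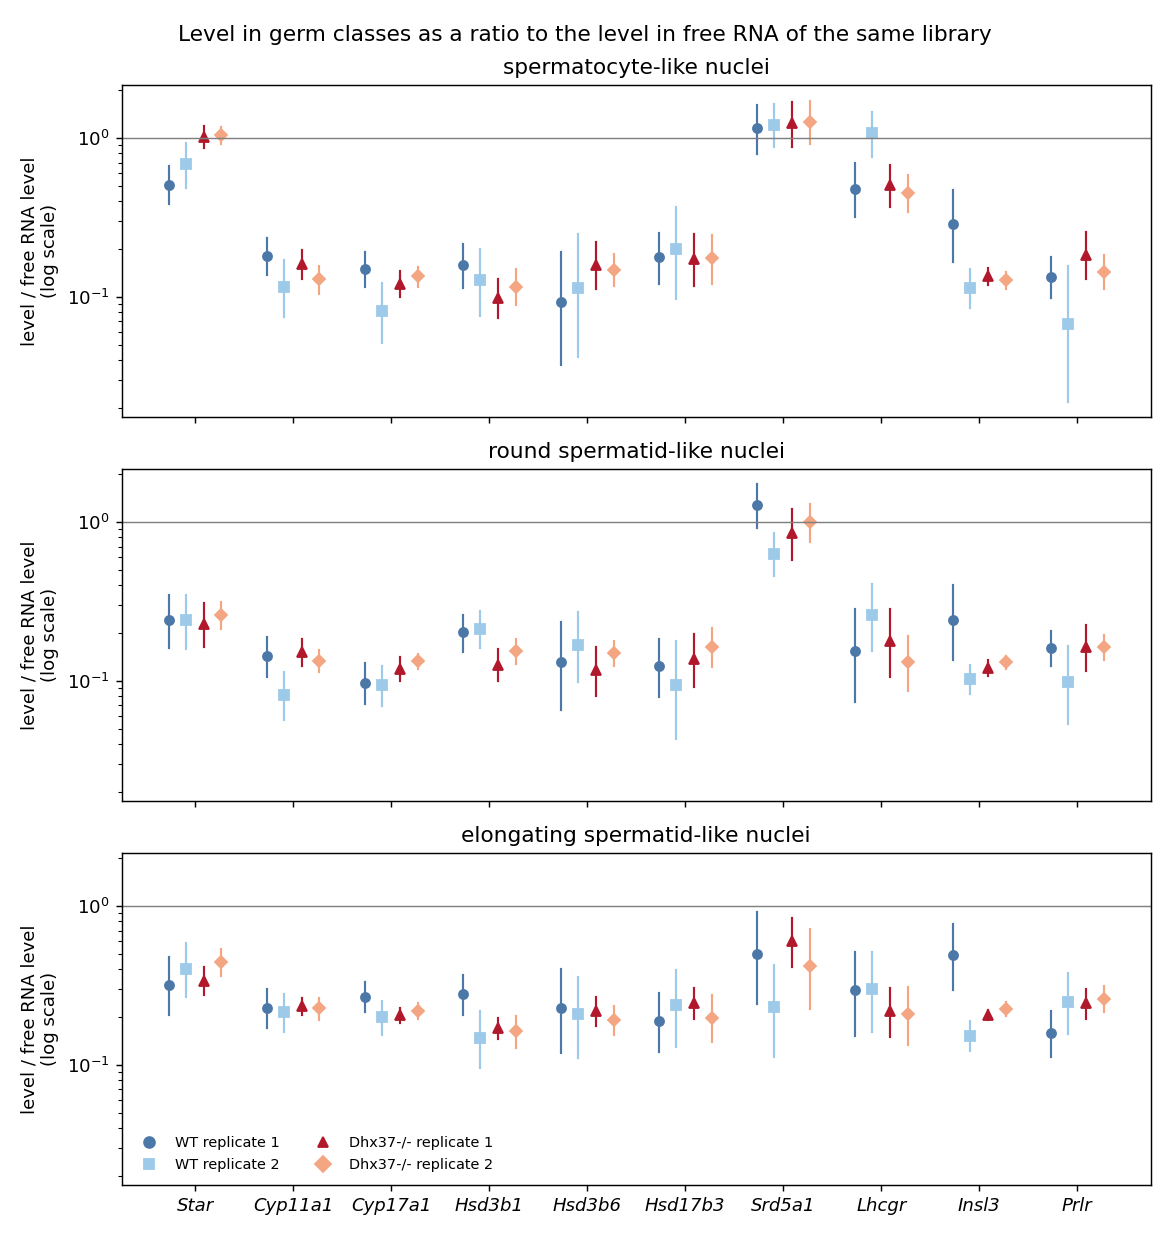
Level of each gene in 3 of the 4 germ cell classes (spermatogonia-like nuclei are not drawn) divided by its level in free RNA of the same library (log scale), 1 point per library, with exact 95% Poisson intervals of the count in the class as bars. Srd5a1 in spermatocyte-like nuclei lies at 1.15 to 1.27, Star at 0.510 to 1.04 and Lhcgr at 0.453 to 1.07, above the other 7 genes (the line marks 1), while in elongating spermatid-like nuclei the 10 genes lie closer together.

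In somatic classes the UMIs of each gene could be set against the number that free RNA would give, from the share of free RNA in the class by the 4 spermatid genes. The intervals are exact 95% Poisson intervals and cover counting error only. Prlr in fibroblast-like nuclei was furthest from that number. Its UMIs numbered 298 and 159 in WT and 441 and 415 in Dhx37-/-, at 568, 666, 597 and 792 CPM, which is 30.3, 254, 102 and 84.2 times what free RNA would give. A UMI of Prlr was found in 61.1% to 82.3% of fibroblast-like nuclei (47.8% to 66.7% after thinning), at median depths of 2835.5 to 4038 UMIs.

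The levels of Prlr in fibroblast-like nuclei differed less between libraries than its levels in Leydig-like nuclei, and the genotypes overlapped. In these nuclei, led by Adamts5, Ebf1 and Dcn, Hsd17b3 stood at 1.91 to 17.6 CPM, Cyp17a1 at 25.1 to 57.2 CPM, Cyp11a1 at 29.3 to 69.0 CPM and Star at 36.6 to 84.0 CPM. Insl3 had a UMI in 1.27%, 8.75%, 30.8% and 31.5% of these nuclei in the 4 libraries. It was at 3.81, 37.7, 149 and 118 CPM there, which is 1.26, 2.33, 2.54 and 3.08 times the number that free RNA would give, with an interval above 1 in the last 3 libraries. Nuclei that passed both the Leydig and the fibroblast limits numbered 0 to 3 per library and were left out. Fibroblast-like nuclei held 5.79% to 17.7% of all Prlr UMIs in nuclei.

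Of the 30 pairs of a gene and a class among Sertoli-like, macrophage-like and fibroblast-like nuclei, 7 had an interval above 1 in all 4 libraries. Among all genes with a UMI in the free RNA of every library, genes that these classes express included, 27.1% of such pairs did, so the count is no result about these genes. Star was among them in each of the 3 classes. In Sertoli-like nuclei, the target of the deletion, Star stood at 15.7, 16.2, 31.8 and 27.3 CPM, 7.35 to 14.7 times the expected number. These values rest on 61 and 21 nuclei in WT and 161 and 234 in Dhx37-/-, with 8 Star UMIs in WT replicate 1. They were not tested between genotypes. Star reached 36.6 to 84.0 CPM in fibroblast-like nuclei, 7.48 to 18.2 times the expected number. In macrophage-like nuclei Star was 3.54 to 6.26 times the expected number, on 3 to 17 UMIs.

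The other pairs were Prlr and Srd5a1 in Sertoli-like nuclei and Cyp11a1 in fibroblast-like nuclei. Prlr had 17, 3, 37 and 110 UMIs in Sertoli-like nuclei, 4.89 to 17.4 times the expected number, and Srd5a1 had 3, 2, 7 and 9. Cyp11a1 in fibroblast-like nuclei was 1.90 to 3.93 times the expected number, with a mean of 3.01 over the libraries. Every gene of the set had a mean above 1 there, from 1.57 for Hsd3b1, with Lhcgr at 6.21. In macrophage-like nuclei the means ran from 1.11 for Lhcgr to 5.06 for Star. In fibroblast-like nuclei the mean was 3.01 for Cyp11a1 and 118 for Prlr. Whether the expected numbers are too low in these classes was not tested. Cyp17a1 and Insl3 in Sertoli-like nuclei were 0 to 1.49 times their expected numbers, with the interval above 1 for Insl3 in Dhx37-/- replicate 1. Insl3 in Sertoli-like nuclei moved with free RNA, at 0, 8.09, 46.8 and 18.1 CPM.

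**Figure D4:**
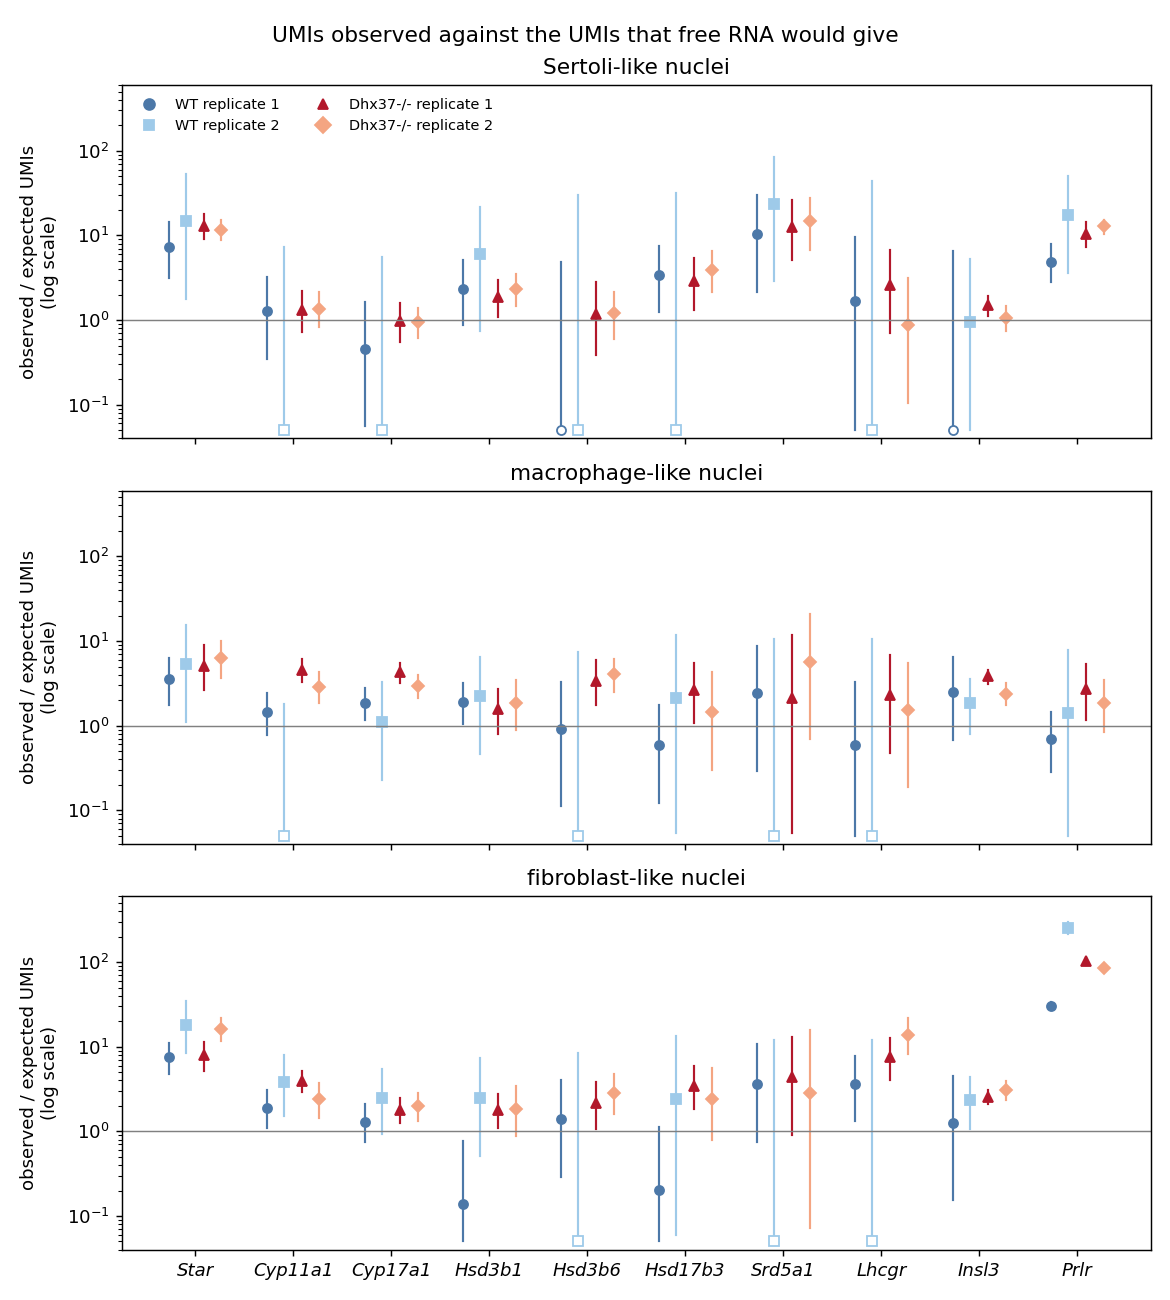
UMIs of each gene divided by the number that free RNA would give (log scale) in 3 somatic classes, 1 point per library with exact 95% Poisson intervals as bars. Open symbols at the lower edge are counts of 0, and the line marks 1. Prlr in fibroblast-like nuclei lies at 30.3 to 254 and Star lies above 1 in all 3 classes.

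Between genotypes, no gene of the set passed in Leydig-like nuclei. In edgeR's quasi-likelihood test of Dhx37-/- against WT sums, 0 of the 10 genes had an adjusted p under 0.05, where 0% of all 12684 genes tested were called. DESeq2 also called 0 of the 10, and 0.00344% of all genes. Without adjustment 1 of the 10 had p under 0.05, Hsd3b6, against 6.48% of all genes.

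As log2 differences of Dhx37-/- over WT, Hsd3b6 stood at 1.05 ± 0.38 (SE, adjusted p = 0.752, edgeR), Insl3 stood at 1.02 ± 0.71 (0.833) and Star at 0.48 ± 0.42 (0.886). Cyp11a1 was at -0.49 ± 0.67, Srd5a1 at -1.42 ± 0.71, Lhcgr at -0.26 ± 0.32 and Hsd17b3 at -0.21 ± 0.33, with adjusted p of 0.946, 0.776, 0.934 and 0.953. The remaining 3 lay between 0.15 and 0.26. After TMM scaling, Hsd3b1 and Hsd3b6 were higher in both Dhx37-/- libraries than in both WT libraries, as were 19.2% of all genes, and Hsd17b3 was lower in both, as were 16.5%. Without that scaling the CPM of Hsd17b3 given above overlapped between genotypes. The median over the 10 genes was a log2 difference of 0.19, beside -0.01 over all genes tested.

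These values rest on 2 WT libraries that differ. Without WT replicate 2, where 2.35% of all genes were called and which leaves WT replicate 1 alone and assumes that it varies like the Dhx37-/- libraries, Insl3 (log2 2.88) and Hsd3b6 (1.24) passed as higher and Srd5a1 (-1.90) as lower in Dhx37-/-, and Cyp11a1 changed its sign to 0.85. Without WT replicate 1, none of the 10 passed, against 0.0625% of all genes, and the difference of Insl3 was 0.22. None passed without Dhx37-/- replicate 1 (0.0228% of all genes) or Dhx37-/- replicate 2 (0.0153%).

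Summed over all nuclei, most of the genes were higher in Dhx37-/- without passing the test. Star was at 17.1 and 13.4 CPM in WT and at 49.1 and 38.5 CPM in Dhx37-/-, a log2 difference of 1.43 ± 0.27 (adjusted p = 0.305, edgeR). Insl3 was at 8.55 and 27.9 CPM in WT and at 137 and 86.2 CPM in Dhx37-/-, a difference of 2.53 ± 0.50 (0.305). Cyp17a1 was at 40.3 and 31.2 CPM against 114.8 and 81.9 CPM, a difference of 1.36 ± 0.26 (0.305).

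After TMM scaling, 7 of the 10 genes were higher in both Dhx37-/- libraries than in both WT libraries, where 28.7% of the 30032 genes tested were, and Srd5a1 was lower in both, where 22.1% were. The test called 0 of the 10 and 0% of all genes, 6 of the 10 had p under 0.05 without adjustment, against 14.8% of all genes, and DESeq2 called 4 (Star, Cyp17a1, Hsd3b6 and Insl3) and 1.13% of all genes. A CPM over all nuclei follows the share of Leydig-like nuclei in all UMIs as well as the level in each, and the 2 cannot be told apart in it. That share depends on the number of germ cell and other nuclei too, and is no count of Leydig cells. Leydig-like nuclei averaged 1.56 ± 0.863% of WT and 3.09 ± 0.097% of Dhx37-/- nuclei (SD over 2 libraries each), and an exact two-sided permutation test gave p = 0.333, the smallest that 2 against 2 libraries allow. With the marker limit at 4 in place of 8 times free RNA, a setting chosen after seeing the data, WT replicate 2 moved from 0.952% to 1.54%, and the other libraries stood at 2.29%, 3.51% and 3.26%.

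Free RNA gave the same 7 genes as higher in both Dhx37-/- libraries, where 27.2% of the 22332 genes tested were. Cyp17a1 was at 87.9 and 73.4 CPM in the free RNA of WT and at 167 and 181 CPM in that of Dhx37-/-, a log2 difference of 1.23 ± 0.37 (adjusted p = 0.162, edgeR). Hsd3b6 was at 15.3 and 13.6 CPM against 42.4 and 62.7 CPM, a difference of 1.97 ± 0.35 (0.154), and Insl3 differed by 2.32 ± 0.80 (0.188). The test called 0 of the 10 and 0% of all genes, 6 of the 10 had p under 0.05 without adjustment, against 18.4% of all, and DESeq2 called 2 (Cyp17a1 and Hsd3b6) and 1.85% of all genes. Leaving out WT replicate 1 raised the number called to 8 both in free RNA and over all nuclei, where the calls rose to 7.48% and 18.6% of all genes. Leaving out WT replicate 2 raised it to 5 in each, with 31.4% and 5.6% of all genes called. Over all nuclei it was 2 without Dhx37-/- replicate 1 (0.0574% of all genes) and 1 without Dhx37-/- replicate 2 (0.0576%), and in free RNA it was 0 without either (0.00424% and 0.0249%). With no filter on low counts 2 were called in free RNA (2.69% of all genes). With the replicate number as a block 1 was called over all nuclei (0.0499%) and 0 in free RNA (0.143%), and with the pairing crossed 6 over all nuclei (2.85%). The crossed pairing was chosen after seeing the data, and its counts for free RNA and Leydig-like nuclei are given at the end.

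**Figure D5:**
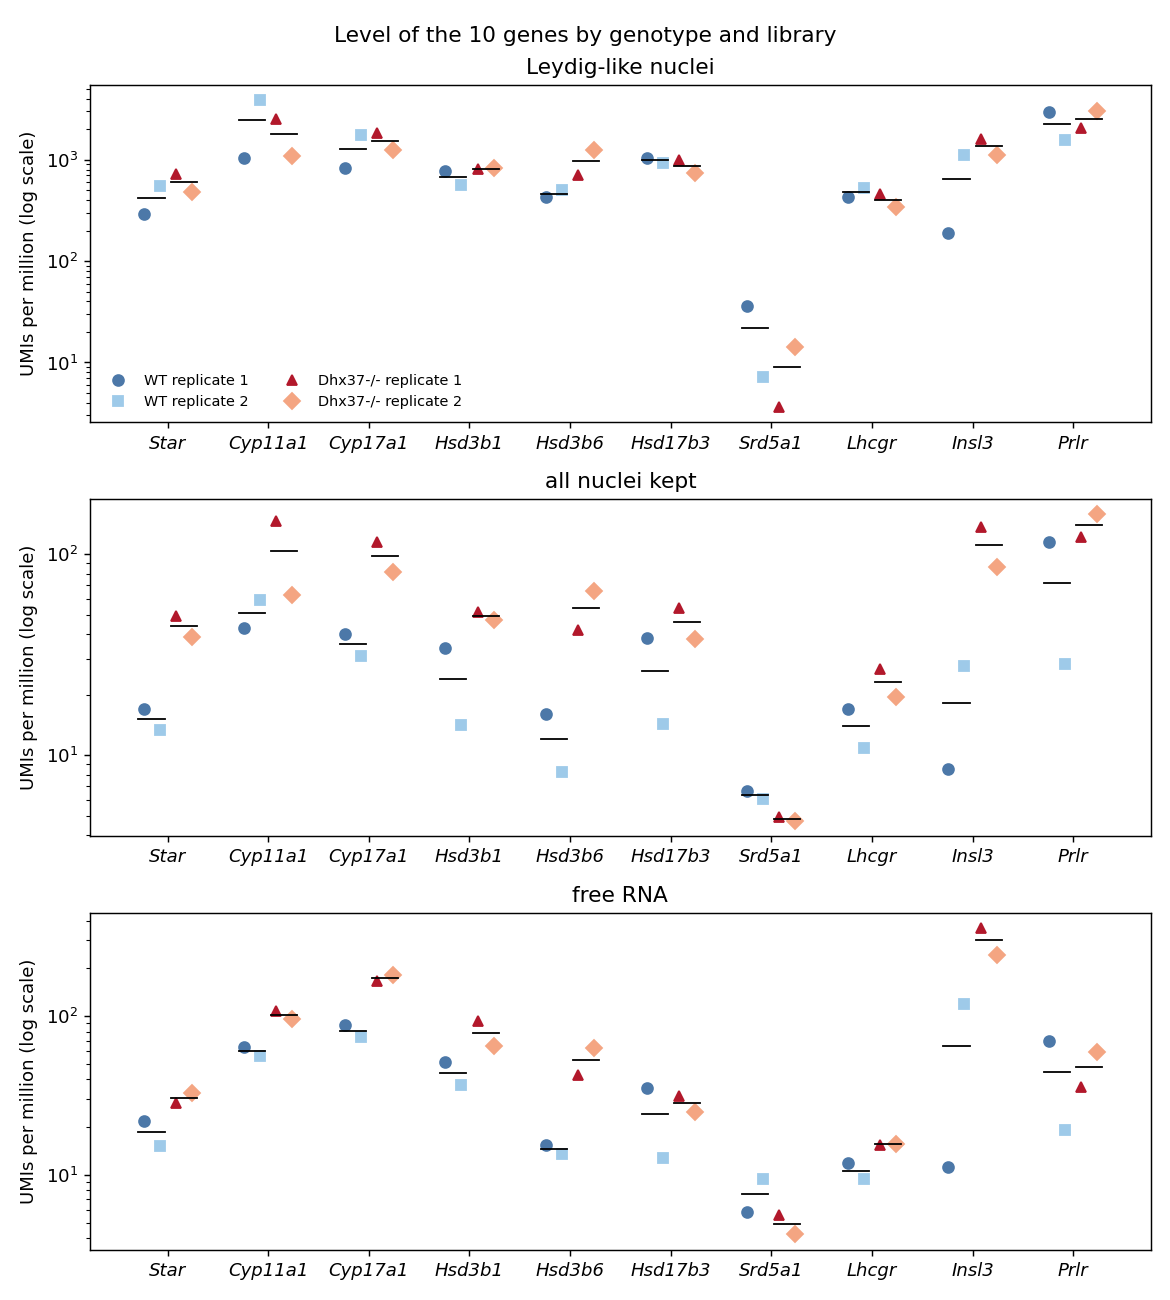
Level of each gene (CPM, log scale) in Leydig-like nuclei, in all nuclei and in free RNA, 1 point per library, with the mean of each genotype as a bar. The CPM are drawn without TMM scaling, and the shares of all genes were counted only with it. With it, 7 genes are higher in both Dhx37-/- libraries in all nuclei, as are 28.7% of all genes tested. In free RNA 7 are (27.2% of all genes), and in Leydig-like nuclei 2 are (19.2%). The Dhx37-/- points lie above the WT points for 8 genes in all nuclei (Prlr, at 121 and 158 against 115.0 and 28.6 CPM, overlaps after TMM scaling), for 7 in free RNA, and for Hsd3b1, Hsd3b6 and Insl3 in Leydig-like nuclei (Insl3, at 189 and 1105 against 1597 and 1110.3 CPM, overlaps after TMM scaling).

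The other genes of the pathway were read from 4 lists. Of the genes that supply cholesterol, 16 of 29 tested were higher in Leydig-like nuclei than in all 7 other classes, against 4.21% of all genes. Among them were Msmo1, Sc5d and Hsd17b7, enzymes of cholesterol synthesis, with smallest log2 differences of 3.52, 3.09 and 2.46. Msmo1 stood at 269.7 and 138 CPM in the Leydig-like nuclei of WT and at 231 and 399.8 CPM in those of Dhx37-/-.

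Of the genes that pass electrons to steroid P450 enzymes, 2 of 5 tested were higher than in all other classes, Fdxr (ferredoxin reductase, 2.51) and Cyb5b (0.91). Of all genes tested 4.21% were. Of other steroid enzymes 3 of 8 were, Hsd17b10 (1.62), Hsd17b12 (1.41) and Hsd17b11 (0.94). Of hormone signalling genes and transcription factors of Leydig cells 5 of 30 were, led by the oestrogen receptor Esr1 (2.01), the phosphodiesterase Pde8b (1.97), Nr5a1 (1.41) and the protein kinase A subunit Prkar2b (1.08). Over all genes tested the median of the smallest log2 difference was -1.94, and the medians of the 4 lists were 0.74, 0.73, -0.72 and -0.36.

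None of the genes on the 4 lists was called between genotypes in Leydig-like nuclei, out of 30, 5, 8 and 26 tested. The same test called 0% of all 12684 genes, so this is no result about the lists. The smallest p among cholesterol genes belonged to Ebp (log2 1.49 ± 0.39, adjusted p = 0.752, edgeR), and to Fdps (1.06 ± 0.29, 0.752), which was at 59.5 and 46.0 CPM in WT and at 99.5 and 126 CPM in Dhx37-/-. In the other lists Cyb5a (0.49) and Cyb5b (-0.28), Sult2b1 (-0.63) and Srd5a3 (-0.85), and Crem (-0.52) and Prkar2b (-0.73) had the smallest p, with adjusted p of 0.776 to 0.924.

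Across the 32 sums of 8 classes in 4 libraries, the genes most like the mean profile of the 10 were Sult1e1 (Pearson r of log2(CPM + 1) = 0.953), Serpina3g (0.950), Tsku (0.934), Ces1d (0.931), B3gat1 (0.931), Fdx1 (0.925), Tbx3 (0.923), Klk1b27 (0.919), Olfr330 (0.917) and Bhmt (0.916). Sult1e1, Ces1d, Fdx1 and Klk1b27 are gate markers. Serpina3g was at 96.7 to 114 CPM in the Leydig-like nuclei of the 4 libraries. The sums share libraries and depth, so these r are a description. Each of the 10 genes had an r with the mean of the other 9 of 0.901 to 0.941, except Srd5a1 (0.270), Insl3 (0.750) and Prlr (0.766).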

How the data were processed

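The deposited values are whole-number UMI counts for each gene and barcode. With 2337833 to 2773488 barcodes per library, they were taken as raw counts without normalization or a filter on barcodes. The file headers name Cell Ranger 7.2.0, and the methods of the study name another version. The genome build is given differently by the labels and the methods, so no position was read from the counts. Nuclei were called by a threshold of 1/10 of the 99th percentile of 8000 expected nuclei and by a test against free RNA (10000 simulations, adjusted p under 0.01), then held to the study's limits (500 to 5000 genes, 500 or more UMIs, a mitochondrial share up to 25%). No doublet caller was run, and nuclei that passed 2 gates were left out. A somatic class needed at least 3 of its markers, 8 times their share in free RNA and 2000 CPM. Nuclei below these limits were given to a germ class at 1.5 times the share of its markers over all nuclei. The limits were set after marker levels were seen. The 10 genes and the lists were chosen with earlier results of these data known. Named genes were the 10, Dhx37, the 4 largest changes of each list (or the 2 smallest p) and the 10 most alike. A gene that this rule names is not reported here.

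Counts were summed per library and tested with edgeR 4.0.16 (TMM, filterByExpr, quasi-likelihood, Benjamini-Hochberg, two-sided) in R 4.3.3, with DESeq2 1.42.0 beside it. The script was tested on simulated data. Sums and intervals were made with numpy 2.4.6, pandas 2.3.3 and scipy 1.17.1. Alternatives varied scaling, filters, gates, free RNA, the tool and the libraries. Depth per library is given with the results.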

Additional observations from a re-analysis of the deposited data

How the results depend on the processing

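Of the 10 genes, 0 were called between genotypes in Leydig-like nuclei under every scaling, gate and filter tried, and 0 to 3 when each library was left out in turn. Over all nuclei the number called was 4 with no filter on low counts (0.271% of all genes), 4 with DESeq2 (1.13%) and 1 to 8 without each library (0.0574% to 18.6%). In free RNA it was 2 with no filter (2.69%), 2 with DESeq2 (1.85%), 1 from the barcodes ranked 90000 to 180000 (0.0713%) and 0 to 8 without each library (0.00424% to 31.4%). The cause was not tested. With the replicate number as a block, 0 genes of the set were called in Leydig-like nuclei, 1 over all nuclei and 0 in free RNA (0%, 0.0499% and 0.143% of all genes). Same-numbered libraries did not deviate together (correlations of their deviations of -0.28 and -0.22), and with the pairing crossed, an alternative chosen after seeing the data, 1, 6 and 4 were called (1%, 2.85% and 11.6% of all genes).

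Without each library in turn, log2 differences in Leydig-like nuclei ran from -1.22 to 0.85 for Cyp11a1, -0.25 to 0.94 for Cyp17a1, -2.69 to 0.28 for Srd5a1 and -0.19 to 0.62 for Prlr, and in free RNA from -0.15 to 1.23 for Hsd17b3 and -0.41 to 1.38 for Prlr, so the sign of each is undecided. Star's share in nuclei minus free RNA ran from -0.34 to 1.39 points. The number of shares with 1 direction in every library was 5 in place of 8 from the barcodes ranked 90000 to 180000, and 7 to 9 otherwise. Under the other alternatives, 9 or 10 genes were higher than in all 7 other classes, the gene and class pairs above free RNA numbered 7 to 10, and Leydig-like nuclei were 0.913 to 2.13 percentage points more of all nuclei in Dhx37-/-.

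Leydig-like nuclei of WT replicate 2 held 412822 UMIs, the fewest of the 4 libraries, and 3 of them were of Srd5a1. Genes called among all genes in Leydig-like nuclei numbered 0 higher and 0 lower, but 203 and 139 without WT replicate 2.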
